A study of Mus musculus with 5 samples.

Results

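A neuron that has fired must return its cytosolic calcium to rest, and 3 gene families do most of that work. The plasma membrane calcium ATPases (PMCA pumps, Atp2b genes) drive calcium out of the cell at the cost of ATP and are switched on by calmodulin. The SERCA pumps (Atp2a genes) drive it into the endoplasmic reticulum, and the sodium-calcium exchangers (Slc8 genes) trade calcium for the sodium gradient that the sodium pump maintains. The 9 genes described here are 4 PMCA genes, 2 SERCA genes and 3 Slc8 genes, matched by name among the 15093 genes of the deposited table, and all 9 were found. They were chosen by gene name, from a table whose genes all exceed 1 unit in some library, and the family was proposed with the fear conditioned and control values of these data in view. The differences between groups given for its members are therefore descriptions and no independent evidence.

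The RNA came from adult Drd2-TRAP mice, a cross of a BAC transgenic Drd2-Cre line with a Rosa26 line in which Cre releases an EGFP-tagged ribosomal protein L10a, so that ribosome-bound RNA can be pulled down from cells with a history of Drd2 promoter activity. Both groups carried both alleles. Each library pooled bilateral punches of the central amygdala (CeA) from 3 animals, with 3 fear conditioned libraries (FC, replicates 2, 3 and 4) and 2 control libraries (replicates 6 and 7). The labels call the controls home cage animals and place the collection 2 h after extinction, and the study's methods likewise write HC for this group, whereas its results text describes controls that heard the tone without shock and a collection after conditioning. Nothing beyond the pooling states how the libraries of a group were separated, so the p-values measure the spread between these pools.

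The libraries held between 19605318 and 27937520 reads on genes. Values were taken as CPM, the reads scaled by an effective library size, because a library sums to between 932938 and 1042030. A floor of 3 reads was worth 0.10 to 0.158 CPM, which covers counting error only. The 4 Drd2 neuron markers (Drd2, Adora2a, Penk and Gpr6) were read in every library and were higher in all 3 FC libraries than in both controls, with sums of 15033 to 17120 CPM against 6421 to 9284 CPM. The controls differed from each other more than the FC libraries did. The median log2 difference between the 2 controls was 1.08 over the 13560 genes tested, while the median range over the 3 FC libraries was 0.44, and control replicate 7 listed 2681 genes at 0 against 976 in control replicate 6 and 159 to 349 in FC. For the 9 pump and exchanger genes the medians were 1.59 between the controls and 0.82 over the FC libraries. With these controls, limma called none of the 13560 genes (0%) with cutoffs of 0.05 on the adjusted p and 0.5 on the size of the log2 fold change, and the smallest adjusted p of any gene was 0.197. At an unadjusted p under 0.05 it took 16.8% of genes, and 36.4% of genes had groups that did not overlap.

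No pump or exchanger was called by that test, and the 9 genes fell into 3 kinds of pattern. Atp2b4, which encodes the pump PMCA4, was the single member whose groups did not overlap, at 40.8 ± 4.33 CPM (SD, n = 3) in FC and 151.9 ± 5.84 CPM (SD, n = 2) in controls. Atp2b2 and Atp2a2, both abundant, had group means close to each other. The other 6 genes had control libraries so far apart that the direction or size of the difference turned on which control was used. With a single control left, all of the spread is taken from the FC libraries and a large part of the table passed the same limma cutoffs: 60.5% of genes without control replicate 6 and 27.5% without control replicate 7. In each of these fits 3 of the 9 members passed, so values with 1 control left out are given below for their size and direction only. Of the 9 log2 fold changes, 3 were above 0 and 6 below, with a median of -0.22 beside a median of 0.08 over all genes tested.

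**Figure D1:**
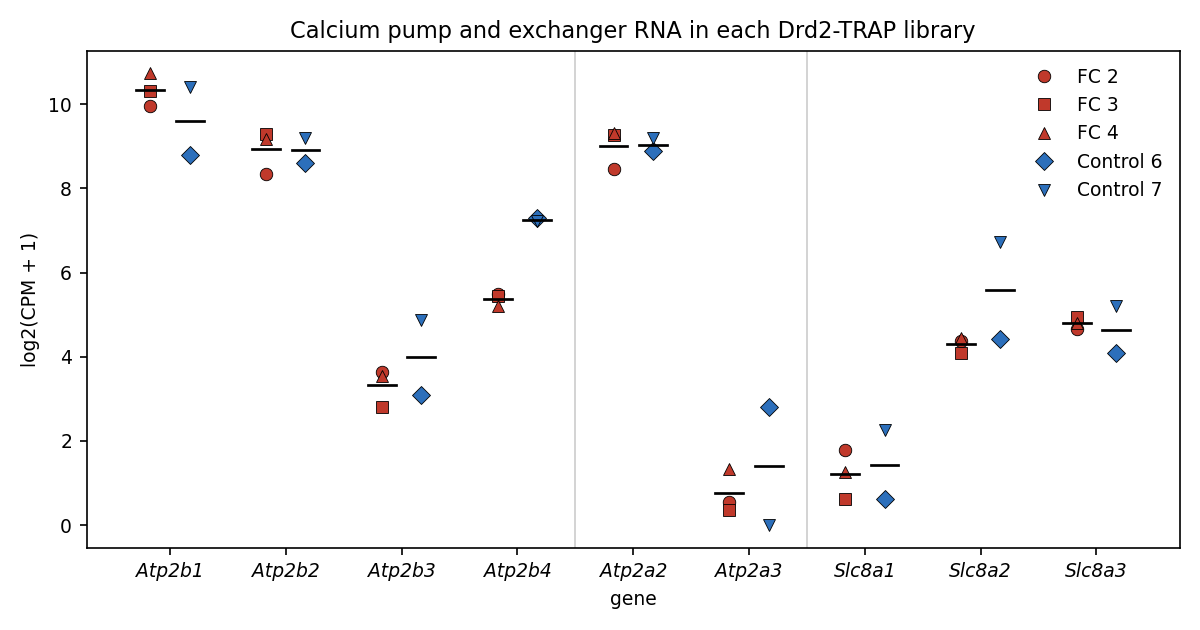
Level of each gene in each library on the log2(CPM + 1) scale (vertical axis), with FC libraries in red, control libraries in blue and short lines at the mean of each group on this scale. The Atp2b4 controls lie together above all 3 FC libraries, while the 2 controls of Atp2b1, Atp2b3, Atp2a3, Slc8a1, Slc8a2 and Slc8a3 lie far apart and overlap the FC libraries or reach beyond them on 1 side or both.

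The PMCA genes held both the member with the highest mean level per kb and the single member whose groups did not overlap. Atp2b1 encodes PMCA1, the housekeeping pump found in nearly all cells. Its values in FC replicates 2, 3 and 4 were 988, 1267 and 1696 CPM, and in control replicates 6 and 7 they were 445 and 1344 CPM. Control replicate 6 was below every FC library and control replicate 7 was within their range. The log2 fold change was 0.73 (SE 0.50), with an adjusted p of 0.489 by limma and 0.5 by a two-sided exact permutation test, whose smallest possible p over the 10 splits of 3 and 2 libraries is 0.1. Leaving out control replicate 7 gave 1.53, and leaving out control replicate 6 gave -0.06.

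Atp2b2 encodes PMCA2, a fast pump enriched in neurons and hair cells. It was read at 322, 628 and 575 CPM in FC and at 389 and 584 CPM in controls. Both controls fell within the FC range, and the log2 fold change was 0.03 (SE 0.36, limma adjusted p = 0.970). Atp2b3 encodes PMCA3, a pump largely restricted to the nervous system, and was the scarcest of the 4 with 145 to 540 reads per library. Its values were 11.4, 6.04 and 10.6 CPM in FC and 7.55 and 28.5 CPM in controls. Control replicate 7 stood above all other libraries and control replicate 6 lay within the FC range. The log2 fold change was -0.66 (SE 0.69, limma adjusted p = 0.646), and it was -1.55 without control replicate 6 and 0.23 without control replicate 7.

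Atp2b4 (ENSMUSG00000026463) was read at 43.9, 42.6 and 35.8 CPM in FC replicates 2, 3 and 4 and at 156 and 148 CPM in control replicates 6 and 7. The reads behind these values were 926, 1024 and 722 in FC and 4672 and 2802 in controls, far above the floor. All 3 FC libraries were below both controls, and within each group the values lay close together. The log2 fold change was -1.88 (SE 0.24), which is 3.67-fold on the log2(CPM + 1) scale. Its unadjusted limma p of 0.000198 ranked 4 of 13560 genes, and its adjusted p of 0.197 was the smallest reached by any gene, a value shared by 350 genes. The exact permutation p was 0.1, the smallest it can give.

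Of all genes tested, 16.1% had FC libraries below both controls, as 1 of the 9 members had, and 1 of 9 also had an unadjusted p under 0.05. On the recovered reads, DESeq2 called 7.5% of genes and edgeR's likelihood ratio test 4.87%, and each called 1 member, Atp2b4. The adjusted p was 6.15e-09 by DESeq2 and 7.2e-06 by the likelihood ratio test, 0.209 by edgeR's quasi-likelihood test and 0.273 by voom. Over all alternatives that adjusted p ran from 6.15e-09 to 0.909, while the log2 fold change stayed between -1.95 and -1.79. It was -1.84 without control replicate 6 and -1.91 without control replicate 7, and Atp2b4 was among the 60.5% and 27.5% of genes that passed the limma cutoffs in these fits.

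Summed markers of most other cell types moved in the same direction as Atp2b4. Beside the counts that follow, 16.1% of all genes tested had FC below both controls. The 7 choroid plexus markers summed to 58.1 to 110 CPM in FC and 1011 to 1415 CPM in controls, with FC below both controls for 3 of the 6 tested. Ttr made up most of the control sums, at 913 and 1320 CPM. Clic6 made up most of the FC sums and overlapped between groups, with means of 61.5 CPM in FC and 57.6 CPM in controls. The 6 astrocyte markers summed to 480 to 628 CPM in FC and 1405 to 2378 CPM in controls (4 of 6 below both), and the 6 oligodendrocyte markers to 1248 to 2640 against 2707 to 5183 CPM (3 of 6). The 6 pallial glutamatergic neuron markers summed to 47.8 to 200 CPM in FC and 256 to 356 CPM in controls (3 of 6), and the 6 endothelial and mural markers to 12.7 to 37.4 against 75.0 to 86.0 CPM (2 of 6). Different genes made up the endothelial and mural sums of the controls. In control replicates 6 and 7, Rgs5 was read at 48.3 and 36.2 CPM and Kdr at 0.234 and 31.3 CPM. The sums of the 6 microglia markers overlapped, at 39.6 to 71.3 against 60.0 to 76.4 CPM, with 1 of 6 below both controls and 2 above. In FC, 1 pallial glutamatergic marker and 1 endothelial or mural marker were also above both controls, beside 20.2% of all genes. No marker was at 0 in all 5 libraries, and the part of these cells in the Atp2b4 difference was not tested. In pooled tissue, a change in which cells contribute and a change in RNA per cell cannot be told apart.

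**Figure D2:**
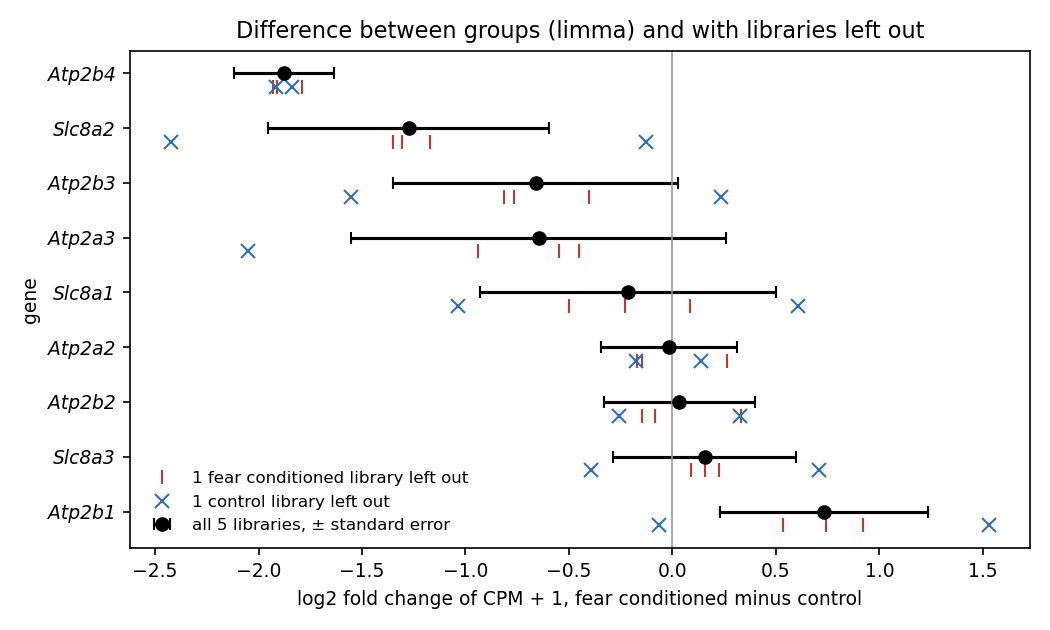
Log2 fold change of CPM + 1 for each gene, FC minus control (horizontal axis), with all 5 libraries (black, bars are standard errors from limma) and with 1 library left out (red ticks for FC, blue crosses for controls). Atp2b4 stays between -1.93 and -1.79 whichever library is left out, whereas the crosses of Atp2b1, Atp2b2, Atp2b3, Atp2a2, Slc8a1 and Slc8a3 fall on both sides of 0. Atp2a3 has 1 cross because its mean fell under the filter without control replicate 6.

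Of the SERCA genes, Atp2a2 carried nearly all of the RNA. It encodes SERCA2, the main endoplasmic reticulum pump of neurons, and was read at 348, 616 and 639 CPM in FC and 468 and 583 CPM in controls. Both controls lay within the FC range, the log2 fold change was -0.02 (SE 0.33), and the limma adjusted p was 0.984. Atp2a3 encodes SERCA3, known from blood, endothelial and some epithelial cells, and had few reads in most libraries. It had 10, 7 and 31 reads in FC, then 180 in control replicate 6 but 0 in the other control, or 0.474, 0.292, 1.54, 6.01 and 0 CPM. The controls were thus the highest and the lowest of the 5 libraries. The log2 fold change was -0.65 (SE 0.91, limma adjusted p = 0.740). It was -2.05 without control replicate 7, -0.12 with a pseudocount of 0.1, -1.02 with quantile normalization, -1.94 by DESeq2 and 0.07 by voom, and without control replicate 6 the gene did not pass the filter on low values.

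Among the exchangers, Slc8a2 and Slc8a3 were expressed at moderate levels and Slc8a1 was scarce. Slc8a1 encodes NCX1, the exchanger of heart muscle that many other tissues also use. It had 52, 13 and 28 reads in FC and 16 and 72 in controls, or 2.47, 0.541 and 1.39 CPM against 0.534 and 3.80 CPM. The controls again enclosed the FC libraries, and the log2 fold change was -0.22 (SE 0.71, limma adjusted p = 0.896), at -1.04 without control replicate 6 and 0.61 without control replicate 7.

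Slc8a2 encodes NCX2, a brain exchanger. It was read at 19.6, 16.2 and 20.9 CPM in FC and at 20.6 and 104.9 CPM in controls. Control replicate 6 was level with the FC libraries, and control replicate 7 alone stood above them. The log2 fold change was -1.28 (SE 0.68, limma adjusted p = 0.391). It was -2.42 without control replicate 6 and -0.13 without control replicate 7. Slc8a3 encodes NCX3, found in brain and skeletal muscle. Its values were 24.3, 29.7 and 27.0 CPM in FC, between the controls at 16.1 and 35.6 CPM, and the log2 fold change was 0.16 (SE 0.44, limma adjusted p = 0.874). Leaving out control replicate 6 gave -0.39 and leaving out control replicate 7 gave 0.71.

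Levels were compared between genes after division by the deposited gene length. Over the 5 libraries, Atp2b1 had the highest mean at 161 CPM per kb, followed by Atp2a2 at 93.9 and Atp2b2 at 42.2 CPM per kb. Slc8a2, Atp2b4 and Slc8a3 followed at 8.12, 7.26 and 5.42 CPM per kb, then Atp2b3 at 2.67, Slc8a1 at 0.572 and Atp2a3 at 0.306 CPM per kb. Atp2a2 exceeded Atp2b2 in 5 of 5 libraries by a log2 ratio of 1.17 ± 0.12 (SD), the steadiest step in this order. Atp2b1 exceeded Atp2a2 in 4 of 5 libraries, the exception being control replicate 6, with a log2 ratio of 0.68 ± 0.64 (SD). Slc8a2, Atp2b4 and Slc8a3 did not differ beyond their spread over all 5 libraries, with log2 ratios of 0.04 ± 0.94 and 0.16 ± 1.22 (SD) from one to the next. The order of Slc8a3 and Atp2b4 differed by group. Slc8a3 was above Atp2b4 in the 3 FC libraries, at 4.97, 6.07 and 5.51 against 3.74, 3.63 and 3.06 CPM per kb, and below it in both controls, at 3.29 and 7.29 against 13.3 and 12.6 CPM per kb. Slc8a3 overlapped between groups, so this order adds nothing independent to the Atp2b4 difference. Slc8a2 was below Atp2b4 in control replicate 6 and above it in control replicate 7, at 4.59 and 23.4 CPM per kb. The steps from Atp2b2 to Slc8a2, from Slc8a3 to Atp2b3 and from Atp2b3 to Slc8a1 had the same direction in 5 of 5 libraries, at log2 ratios of 2.76 ± 1.06, 1.20 ± 0.71 and 2.42 ± 0.61 (SD). Slc8a1 exceeded Atp2a3 in 4 of 5 libraries.

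Summed per kb, the PMCA genes reached 172, 236 and 292 CPM per kb in FC and 110 and 257 in controls. The group means of 233 ± 60.0 (SD, n = 3) and 183 ± 104 (SD, n = 2) CPM per kb overlapped within their spread. The SERCA sum was 94.7 ± 28.7 in FC and 93.5 ± 13.6 CPM per kb in controls. The Slc8 sum was 10.1, 9.85 and 10.6 CPM per kb in FC and 8.06 and 31.9 in controls, so that the 3 FC libraries were nearly level and the controls lay on either side of them. Exchanger RNA was thus the smallest of the 3 sums in every library.

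Within the PMCA family, Atp2b4 held 2.18%, 1.54% and 1.05% of the summed level per kb in FC and 12.1% and 4.91% in controls. Every FC library was below both controls in this share, as it was in CPM, but the controls lay further apart in the share than in CPM. Atp2b1 was lower in control replicate 6, which makes the share of the others larger there. Atp2b1 held 80.6%, 75.4% and 81.6% in FC and 56.7% and 73.5% in controls, and Atp2b2 held 15.8% to 22.5% in FC and 29.8% and 19.2% in controls. The log2 ratio of Atp2b1 to Atp2b4 was 5.21, 5.61 and 6.28 in FC and 2.23 and 3.91 in controls. That of Atp2b2 to Atp2b4 was 2.86, 3.87 and 3.99 in FC and 1.31 and 1.97 in controls, so both ratios were higher in each FC library than in either control. They share Atp2b4, and add nothing independent to its own difference.

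In the exchanger family, Slc8a3 held 49.0%, 61.6% and 51.9% of the Slc8 level per kb in FC and 40.8% and 22.8% in controls, and Slc8a2 held 43.0%, 36.6% and 43.8% in FC and 57.0% and 73.3% in controls. The log2 ratio of Slc8a3 to Slc8a2 was 0.19, 0.75 and 0.24 in FC and -0.48 and -1.68 in controls. Slc8a3 was thus the higher of the pair in each FC library and the lower in each control, although the CPM of each gene overlapped between groups. The 2 controls came to this order in different ways. Beside the FC libraries, control replicate 6 was low in Slc8a3 (16.1 CPM) and level in Slc8a2 (20.6 CPM). Control replicate 7 was above them in both, at 35.6 CPM for Slc8a3 and 104.9 CPM for Slc8a2. How many other gene pairs separate the groups by their ratio was not tested. The difference in this log2 ratio, 1.48, was not tested, and it was 2.08 without control replicate 6 and 0.88 without control replicate 7. By contrast, the log2 ratio of Atp2b2 to Atp2a2 lay between -1.33 and -1.04 in all 5 libraries.

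**Figure D3:**
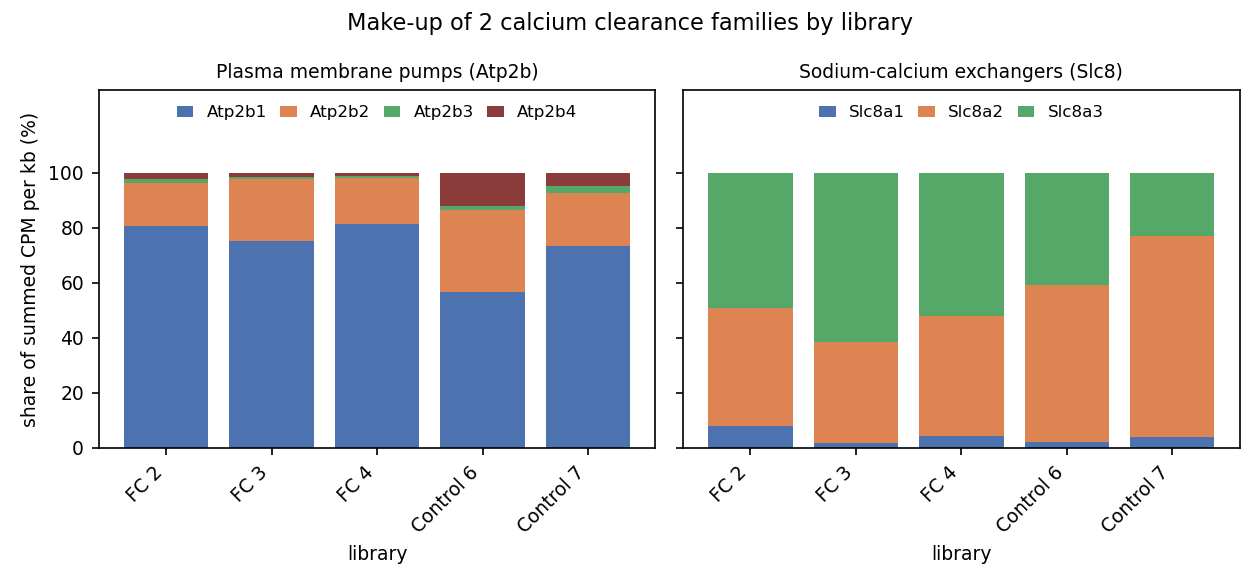
Share of each gene in the summed CPM per kb of its family (vertical axis, percent) in each library, for the 4 PMCA genes (left) and the 3 Slc8 genes (right). The Atp2b4 segment is 1.05% to 2.18% in FC and 4.91% and 12.1% in controls, and Slc8a3 exceeds Slc8a2 in the FC bars but not in the control bars.

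The genes that work beside these pumps were grouped in 7 lists of 52 genes, of which 49 were in the table and 45 were tested. Limma called 0 of 45, beside 0% of all genes. At an unadjusted p under 0.05 it took 7 of 45, beside 16.8% of all genes, and the FC libraries were above both controls for 8 and below both for 7, beside 36.4% of all genes in either direction. Pln is among the 7 at that p, and Pln and Sln are among the 8 above. Both passed the filter on low values through the FC libraries. Except where said otherwise, the genes named for each list are from the 2 with the highest mean CPM.

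PMCA pumps need the chaperone subunits neuroplastin (Nptn) and basigin (Bsg) and respond to calmodulin, and SERCA pumps are held back by phospholamban (Pln) and sarcolipin (Sln). In this list of 7 regulators the median log2 fold change was 0.54, with 5 of 7 genes above both controls in all FC libraries, beside 20.2% of all genes, and none below. The median and the count include Pln and Sln, which passed the filter on low values through the FC libraries. They are therefore not read as a shift of the list. The 4 of 4 Drd2 neuron markers were also above both controls, with a median log2 fold change of 1.32, and their part in the values of this list was not tested. Calm2 was read at 6941, 7678 and 6957 CPM in FC and 4659 and 4898 CPM in controls (log2 fold change 0.59, limma adjusted p = 0.405). Nptn, Bsg and Pln are added for their roles, with their values already seen. Nptn overlapped between groups, at 561 to 834 CPM in FC and 668 and 1013 CPM in controls. Bsg was read at 807, 521 and 686 CPM in FC and at 444 and 466 CPM in controls, with a log2 fold change of 0.54 (SE 0.25, limma adjusted p = 0.346). Pln was scarce, with 52, 24 and 48 reads in FC and 0 in both controls. Sln was scarce too, at 2.09, 1.12 and 1.34 CPM in FC and 1.07 and 0 CPM in controls. Pln and Sln passed the filter on low values through the FC libraries alone, so no fold or test is given for them.

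The other calcium pumps and exchangers had 4 of 9 genes tested and a median log2 fold change of 0.29. None of the 4 had groups apart, beside 36.4% of all genes. Slc24a2, a potassium-dependent sodium-calcium exchanger of neurons, had a mean of 151 ± 64.1 CPM (SD, n = 3) in FC and 124 ± 8.87 CPM (SD, n = 2) in controls. Atp2c1, the Golgi pump for calcium and manganese, had means of 99.5 ± 28.7 and 72.8 ± 2.96 CPM. The sodium pump, which supplies the gradient the exchangers use, had a median of -0.40. Of its 6 genes, 0 were above and 2 below both controls, beside 20.2% and 16.1% of all genes. Its beta subunit Atp1b1 overlapped between groups, at 2039 ± 49.6 CPM (SD, n = 3) in FC and 1904 ± 206 CPM (SD, n = 2) in controls. Atp1b2, a beta subunit known from astrocytes and named after its values were seen, was below both controls in all FC libraries, at 84.7 ± 14.6 against 228 ± 73.1 CPM. Its log2 fold change was -1.40 (limma adjusted p = 0.197), and the astrocyte markers stood as given above.

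The store release and refill genes had a median log2 fold change of 0.05 over 13 genes. Of these, 3 were below both controls and 0 above, beside 16.1% and 20.2% of all genes. Itpr1, the neuronal IP3 receptor that releases stored calcium, had 472 ± 121 CPM in FC and 360 ± 125 CPM in controls, and Saraf, a brake on store refilling, had 293 ± 42.2 and 282 ± 13.8 CPM. The 3 with groups apart, named after their values were seen, were Itpr2 and the plasma membrane refill channels Orai1 and Orai2, with log2 fold changes of -0.66, -1.31 and -0.81 (limma adjusted p = 0.550, 0.244 and 0.293). Of the 5 store binding proteins tested, the chaperone Hspa5 was read at 558, 515 and 468 CPM in FC and 334 and 225 CPM in controls (log2 fold change 0.90, limma adjusted p = 0.210). Canx was on the other side, at 239, 272 and 300 CPM in FC and 384 and 319 CPM in controls (log2 fold change -0.38, adjusted p = 0.416).

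Among the 7 mitochondrial calcium genes the median log2 fold change was -0.21. Smdt1 (347 ± 77.6 against 339 ± 189 CPM) and Micu3 (156 ± 29.8 against 229 ± 192 CPM), both parts of the mitochondrial uniporter complex, overlapped between groups. In the list of 3 cytosolic buffers, Calb1 had 1330 ± 100.9 CPM in FC and 978 ± 434 CPM in controls, and Pvalb had 18.9 ± 13.2 and 31.8 ± 20.5 CPM, and neither had groups apart.

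**Figure D4:**
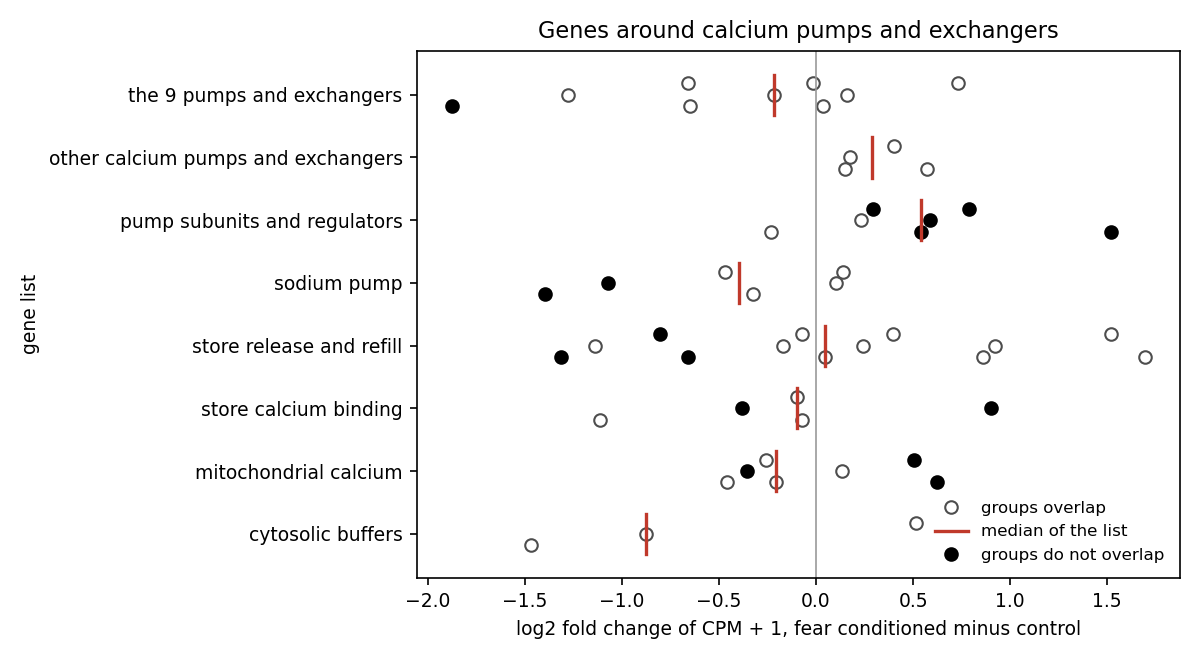
Log2 fold change of CPM + 1, FC minus control (horizontal axis), for the 9 pumps and exchangers and the 45 tested genes of 7 related lists, with filled points where the groups do not overlap and red lines at list medians. The medians run from -0.88 for the 3 cytosolic buffers to 0.54 for the pump subunits and regulators, and Atp2b4 is the filled point at the far left. The median of the pump subunits and regulators includes Pln and Sln, which passed the filter through the FC libraries.

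The genes whose profile over the 5 libraries was nearest to the member of each family with the highest mean CPM per kb were sought among 9276 genes with a mean of at least 10 CPM, by the Euclidean distance between centred log2(CPM + 1) values. Atp2a2 had the closest neighbours, Nt5e at 0.10, Runx1t1 at 0.12 and Hecw2 at 0.15. Nt5e was read at 40.8, 72.8 and 75.9 CPM in FC and 59.5 and 69.1 CPM in controls. The nearest to Atp2b1 were Smg5 at 0.26, and Fbxl14 and Lynx1, both at 0.29. Lynx1 was read at 194, 198 and 272 CPM in FC and 71.5 and 206 CPM in controls, with the same low control replicate 6. In the Slc8 family Slc8a2 has the highest mean per kb through control replicate 7, and Slc8a3 was higher in each FC library. The nearest to Slc8a2 were Cdk5r1 and Syt7, both at 0.18, and Ccdc112 at 0.20. Cdk5r1 was read at 102, 96.1 and 118 CPM in FC and at 128 and 596 CPM in controls, so the likeness rests on the high control replicate 7. With 5 libraries such distances describe these samples alone.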

How the data were processed

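RNA bound to tagged ribosomes was measured in 5 libraries (3 FC, 2 control). The authors deposited 1 table with the normalized signal of every gene, with a gene length and no column of another sample (0). The values were taken as CPM scaled by effective library size, a unit inferred from the sum of each library. The submitters' processing notes name DESeq and the build mm8. The aligner and any counting by strand are not given in the sources used here. All values were whole multiples of 1 read (100% within 0.01), which gave the recovered reads.

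Groups were compared with limma 3.58.1 (lmFit, eBayes with a trend) on log2(value + 1), two-sided, for 13560 of 15093 genes with a mean of at least 1, with Benjamini-Hochberg adjustment over all of them. Genes were called with cutoffs of 0.05 on the adjusted p and 0.5 on the size of the log2 fold change. A fold on this scale understates the change of low genes. Single members were also compared by an exact permutation test over 10 splits. Alternatives were a pseudocount of 0.1, other filters, quantile normalization, library weights, no fold cutoff, each library left out, and, on recovered reads, edgeR 4.0.16, DESeq2 1.42.0 and voom. The fits were also run on simulated data with large changes and the same spread in both groups. The real controls differed more than the FC libraries, so that run does not show how the fits perform here. R 4.3.3 and Python 3.11.15 were used.

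The members and lists were chosen with earlier results of these data known. The genes named were all 9 members, the genes called or else the 2 highest by mean in each list, and the 3 nearest in profile to the member of each family with the highest mean per kb. Some genes that this rule names are not reported here. The groups share no replicate numbers. Lengths at or below 0 (9 genes) and 43 repeated names touched no member.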

Additional observations from a re-analysis of the deposited data

How the results depend on the processing

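No paired analysis was possible because the groups share no replicate numbers. The count of genes called, 0 in the main test, was 660 by edgeR's likelihood ratio test and 1017 by DESeq2, and ran from 0 to 8025 with 1 library left out. The count of members called was 1 by each of these count tests (Atp2b4) and ran from 0 to 3 with 1 library left out. Without control replicate 6, where 8025 of 13268 genes (60.5%) were called, the 3 were Atp2b3, Atp2b4 and Slc8a2, and without control replicate 7, where 3722 of 13550 genes (27.5%) were called, they were Atp2b1, Atp2b4 and Atp2a3. These shares are close to or above that of the members. Only Atp2b4 and Slc8a2 kept their direction in all 15 alternatives. With 1 library left out, log2 fold changes ran from -0.064 to 1.53 for Atp2b1, -0.26 to 0.33 for Atp2b2, -1.55 to 0.23 for Atp2b3, -0.18 to 0.26 for Atp2a2, -1.04 to 0.61 for Slc8a1 and -0.39 to 0.71 for Slc8a3. Other changes of sign were -0.047 for Atp2b2 with quantile normalization, 0.13 for Atp2a2 with library weights, 0.023, 0.10 and 0.023 for Atp2a2 by edgeR's quasi-likelihood test (TMM, then upper quartile) and likelihood ratio test, and 0.071 for Atp2a3 and 0.025 for Slc8a1 by voom. The log2 difference of the family sums ran from -0.17 to 1.05 for PMCA and -1.65 to 0.34 for Slc8, and the difference in the Atp2b4 share from -10.5 to -3.32 percentage points. The causes of these changes were not tested. Few reads in most libraries limit what can be said of Atp2a3, Slc8a1, Pln and Sln.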
